A study of Adonis amurensis with 6 samples.

Results

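Rubisco and the other enzymes of the Calvin cycle were followed through the flowering of *Adonis amurensis*, a perennial herb of the buttercup family that flowers in early spring. Members were all unigenes whose best Swiss-Prot match was named a Rubisco small chain, large chain or activase, a phosphoribulokinase (PRK), a sedoheptulose-1,7-bisphosphatase (SBPase), a chloroplastic fructose-1,6-bisphosphatase (FBPase), a chloroplastic glyceraldehyde-3-phosphate dehydrogenase A or B (GAPA, GAPB) or a transketolase. This gave 98 of the 190353 unigenes in the table. A unigene is a contig, or a group of joined contigs, of an assembly made without a genome, so several unigenes can belong to 1 gene. The samples were the floral organs of plants grown in an open field, taken at 6 stages. FBD is flower bud differentiation. YA, the young alabastrum, is the young closed bud, and VCA, the visible color alabastrum, is the closed bud once it shows colour. EFS stands for early flowering, FBS for full bloom and SFS for the senescing flower. Each stage was 1 library, and no genotype or number of plants is given for any of them. FBD, YA and VCA are labelled flower bud, and EFS, FBS and SFS flower.

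The Calvin cycle fixes carbon dioxide in the chloroplast stroma. Rubisco, built of large chains encoded in the chloroplast genome and small chains encoded in the nucleus, joins carbon dioxide to ribulose-1,5-bisphosphate, and Rubisco activase frees its active sites of bound sugar phosphates. The product is reduced by the dehydrogenase that GAPA and GAPB form, and FBPase, SBPase, transketolase and PRK rebuild the acceptor. In petals the chloroplasts of the young bud usually lose their chlorophyll or turn into chromoplasts as the flower colours, while sepals and young fruits can stay green.

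Values are FPKM, fragments for each kilobase of a unigene, relative to the mapped reads, so levels are already per length. With 1 library per stage no difference could be set against a spread between plants, and no test was made. Summed FPKM lay between 724656 and 755345 in the 6 libraries. The read numbers are unknown, and the depth relative to YA, read from unigenes at low FPKM, was between 0.804 in FBD and 1.15 in EFS. The FBD value is less certain, since it rests on 464 unigenes, against 15116 or more for each later stage. The FBD library stood apart in the whole table. Of the 101053 unigenes that reached an FPKM of 1 either in FBD or as a mean over YA to SFS, 46.4% lay at least 20-fold lower in FBD than in the later mean and 52.1% at least 20-fold higher. The stages YA to SFS were therefore compared with each other and FBD is described on its own.

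The 98 members were 27 small chain, 3 large chain, 22 activase, 2 GAPA, 8 GAPB, 17 FBPase, 3 SBPase, 14 transketolase and 2 PRK unigenes. The assembly placed 67 of them in 21 sequence clusters, numbered CL, and left 31 single. Of the members, 75 also carried a KEGG orthology, a catalogue entry for genes of 1 function, and in each the entry was that of the enzyme in the name. The 22 activases and 1 transketolase carried none. The Swiss-Prot matches came from 21 organisms, all of them land plants. The match was weak, with an E value above 1e-20, in 29 members, 13 of them small chains and 8 transketolases, and 6 of the 29 averaged an FPKM of at least 1 over YA to SFS. Of all members, 21 were listed at 0 in each of YA to SFS, 44 were above 0 in each, and 46 averaged at least 1.

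All 9 enzyme classes were expressed in the flower from YA to SFS, and as deposited their summed levels were lower in full bloom than at early flowering and higher in the senescing flower than in full bloom. The members together summed to 5451 FPKM in YA and 5482 in VCA, then 7943 in EFS, 3466 in FBS and 8560.5 in SFS. That was 0.733% of all FPKM in YA and 0.726% in VCA, then 1.08% in EFS, 0.478% in FBS and lastly 1.18% in SFS. The sum in FBS was 0.436 times that in EFS, and the SFS sum was 2.47 times that in FBS and 1.57 times that in YA. Both of the first ratios use the same FBS library, so they are not independent of each other. In samples of whole floral organs, fewer green cells and less RNA per green cell cannot be told apart.

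**Figure D1:**
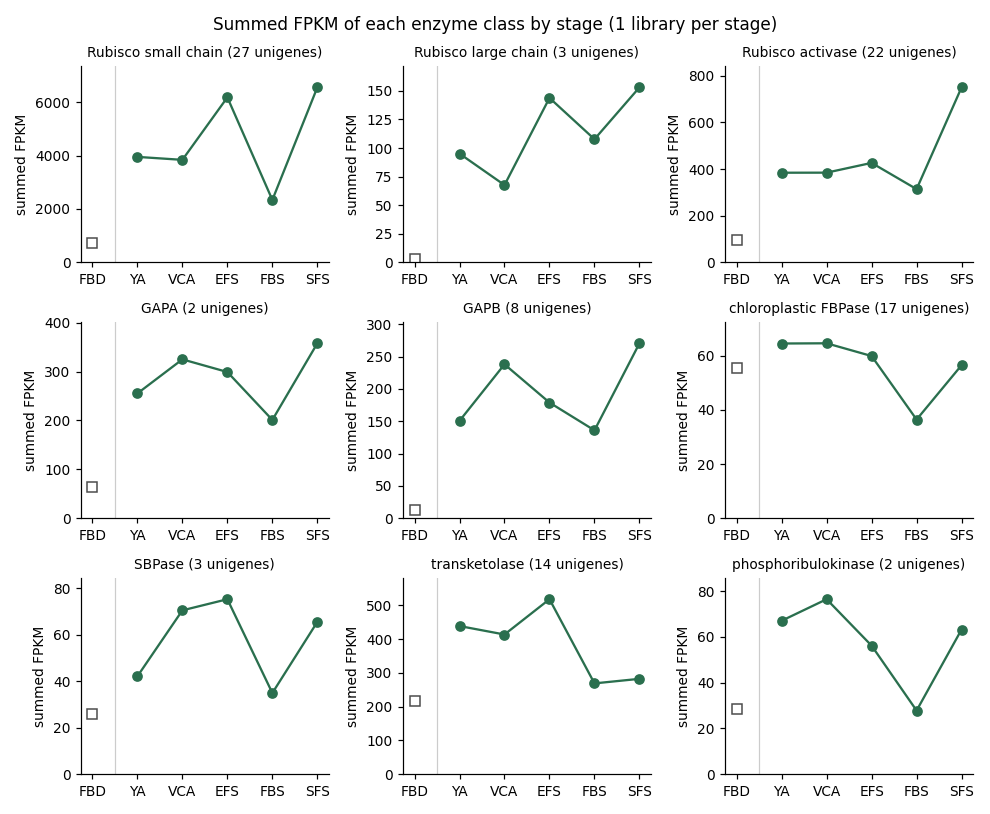
Summed FPKM of the unigenes in each of the 9 enzyme classes (vertical axes, each from 0) by stage (horizontal axes). Filled circles joined by lines are YA to SFS and the open square is FBD, 1 library each. FBS is the lowest of YA to SFS in 8 classes, and in the large chain VCA is. With the libraries scaled by the median ratio or by actin, FBS is the lowest in 6 and 4 classes.

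The Rubisco small chain made up most of the members' FPKM in each stage, 59.5% in FBD and between 67.5% in FBS and 77.9% in EFS from YA to SFS. Its 27 unigenes summed to 3953 FPKM in YA and 3842 in VCA, then 6185 in EFS, 2339 in FBS and lastly 6561 in SFS. The sum was 2.80 times as high in SFS as in FBS, the largest such ratio of the 9 classes. The leading small chain was CL1613.Contig2, with 1123 FPKM in YA and 990.4 in VCA, then 2127 in EFS, 939 in FBS and 2324 in SFS. It led the class in each of these stages, and its SFS value was 2.48 times its FBS value. CL1613.Contig5 had 1019.6, 887, 1746, 746 and 1877 FPKM in YA, VCA, EFS, FBS and SFS. CL1613.Contig6 had 570 FPKM in YA and 514 in VCA, then 855 in EFS, 199 in FBS and lastly 860.2 in SFS. These 3 contigs share a cluster, were lowest in FBS and highest in SFS, and are not independent of each other.

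Some small chain unigenes had other courses. Unigene11037, named here after its values were seen, had 324 FPKM in YA and 586 in VCA, then 223 in EFS, 136 in FBS and 255 in SFS, so it was highest in the coloured bud. Unigene10404 had 20.1, 40.1, 44.6, 2.95 and 7.15 FPKM in YA, VCA, EFS, FBS and SFS, and was among the 3 members furthest below YA in SFS of those that reached 10 FPKM in SFS or YA. Its Swiss-Prot match is weak, with an E value of 5.8e-12, and its best match in the Nr database is named a copia protein, a retrotransposon product, so its label as a small chain is uncertain.

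The Rubisco large chain carries the active site. Its 3 unigenes summed to 95.1 FPKM in YA and 67.6 in VCA, then 144 in EFS, 108 in FBS and 153 in SFS, and it was the only class whose lowest stage was not FBS. Nearly all of this was CL19492.Contig1, at 92.8 FPKM in YA and 67.2 in VCA, then 134 in EFS, 106 in FBS and lastly 146 in SFS. The other contig of the cluster, CL19492.Contig4, lay between 0.37 FPKM in VCA and 9.75 in EFS. The summed small chain stood at 41.6 times the summed large chain in YA, 56.9 times in VCA, 43.0 times in EFS, 21.7 times in FBS and 42.9 times in SFS. The ratio in FBS was the lowest of these 5. Chloroplast transcripts mostly lack the long poly(A) tail of nuclear ones, and whether the libraries were selected for poly(A) RNA is not stated in the sources used, so the ratio is not one of transcripts in the cell.

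Rubisco activase was the class with the largest ratio between the senescing flower and the young bud. Its 22 unigenes summed to 384 FPKM in YA and 385 in VCA, then 427 in EFS, 314 in FBS and 751 in SFS, a ratio of 1.95 for SFS over YA. CL29960.Contig1 had 156 FPKM in YA and 196 in VCA, then 121 in EFS, 83.7 in FBS and 355 in SFS, and was both the most abundant activase and, of those that reached 10 FPKM in SFS or YA, among the 3 members furthest above YA in SFS. CL31010.Contig1 had 61.9, 73.7, 110.4, 74.7 and 131 FPKM in YA, VCA, EFS, FBS and SFS, with its lowest value in the young bud. CL3468.Contig1 had 67.5 FPKM in YA and 35.8 in VCA, then 25.4 in EFS, 22.6 in FBS and lastly 92.4 in SFS. These leaders shared the high SFS value and differed in their lowest stage. CL31010.Contig2 was low, at 2.91, 13.1, 8.49, 2.19 and 13.1 FPKM in the same order, and was another of those 3 members, above YA in SFS by 2.13 on the scale of log2(FPKM + 0.1).

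GAPA and GAPB are the subunits of the chloroplast dehydrogenase that uses NADPH to reduce the product of carbon fixation. GAPA rested on 1 contig, CL26842.Contig2, with 255 FPKM in YA and 325 in VCA, then 299 in EFS, 201 in FBS and 358 in SFS. GAPB summed to 151 FPKM in YA and 238 in VCA, then 179 in EFS, 136 in FBS and 270.5 in SFS. Both subunits were lowest in FBS and highest in SFS, and VCA was above YA in both. The summed GAPA stayed between 1.32 and 1.69 times the summed GAPB over these 5 stages.

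The single contigs of GAPB moved far more than their sum. CL7206.Contig2 had 74.2 FPKM in YA and 41.0 in VCA, then 73.5 in EFS, 35.6 in FBS and 137 in SFS. CL7206.Contig3 had 65.0, 117, 93.1, 41.3 and 44.7 FPKM in YA, VCA, EFS, FBS and SFS. CL7206.Contig1 alternated, with 6.62 FPKM in YA and 76.9 in VCA, then 2.20 in EFS, 55.7 in FBS and 5.70 in SFS. CL7206.Contig5 was at 4.78, 2.79, 6.08 and 3.31 FPKM in YA, VCA, EFS and FBS and at 79.9 in SFS, a log2 ratio of 4.03 for SFS over YA, which made it, with CL29960.Contig1 and CL31010.Contig2, 1 of the 3 members furthest above YA by that limit of 10 FPKM. The contig that led the cluster was Contig2 in YA and SFS, Contig3 in VCA and EFS, and Contig1 in FBS. The highest sum of the 4 contigs was 1.97 times the lowest, while the same ratio for a single contig was between 2.83 and 35.0.

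In the activase clusters CL29960, CL3468 and CL31010 a single contig led all 5 stages, and most contigs again varied more than their sum. In CL475, whose contigs stayed at or below 7.21 FPKM, Contig4 led from YA to FBS and Contig2 led in SFS. CL29960 summed to 159 FPKM in YA and 198 in VCA, then 207 in EFS, 151 in FBS and 363 in SFS, a ratio of highest to lowest of 2.40, beside 4.24 for Contig1 and 38.6 for Contig2. In CL3468 the ratio was 3.81 for the sum and between 4.09 and 54.8 for the 4 contigs above 0 in all 5 stages. CL31010 varied less, with 2.18 for the sum and 2.12 for its leading Contig1, against 2.51 for Contig3 and 5.99 for Contig2. CL29960.Contig2, chosen after its values were seen, had 83.7 FPKM in EFS and 67.7 in FBS, where Contig1 had its lowest values, and at most 8.23 in the other 3 stages. CL3468.Contig5, chosen in the same way, had 5.80 FPKM in EFS and 19.7 in FBS and at most 0.85 in YA, VCA and SFS. In the small chain cluster CL1613 the ratio was 2.86 for the sum and between 2.48 and 13.1 for the 8 contigs, and Contig2 led all 5 stages, with cluster sums of 3529 in YA and 3163 in VCA, then 5819.6 in EFS, 2167 in FBS and 6204 in SFS. Reads of near-identical contigs are divided between them by the counting program, and whether such contigs are alleles, gene copies or splice forms cannot be told apart here. Sums over a class or cluster depend less on that division than the contigs do.

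**Figure D2:**
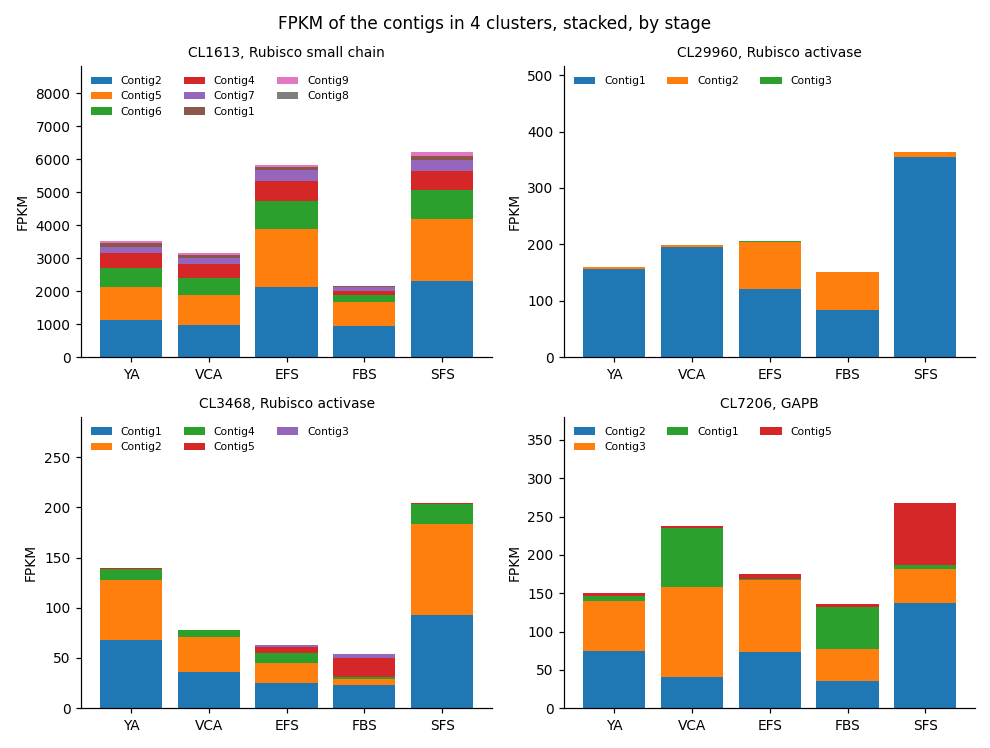
FPKM of the contigs of 4 clusters (vertical axes, from 0), stacked within each of the stages YA to SFS (horizontal axes). In CL7206, the GAPB cluster, the leading contig changes between stages while the sum stays within a ratio of 1.97, whereas Contig2 leads throughout in CL1613, the small chain cluster.

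FBPase and SBPase remove a phosphate from fructose and sedoheptulose bisphosphate and commit carbon to the return path. The 17 FBPase unigenes summed to 64.5 FPKM in YA and 64.5 in VCA, then 59.8 in EFS, 36.4 in FBS and lastly 56.5 in SFS. The leading one, CL26009.Contig1, had 22.5, 35.1, 30.5, 21.8 and 36.5 FPKM in YA, VCA, EFS, FBS and SFS. CL26009.Contig2 had 16.0 FPKM in YA and 17.1 in VCA, then 9.90 in EFS, 1.68 in FBS and 5.45 in SFS, and was likewise among the 3 members furthest below YA in SFS of those that reached 10 FPKM in SFS or YA. The contigs of this cluster thus differed in SFS, Contig1 being above its YA value and Contig2 below it. CL22836.Contig1 lay between 5.53 FPKM in SFS and 10.9 in YA. CL14689.Contig3 had 11.2 FPKM in YA and 0.13 in VCA, then 0 in EFS, 0.37 in FBS and 0.50 in SFS, so YA was the only one of these 5 libraries in which it exceeded 1 FPKM.

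SBPase, which has no role outside the cycle, rested on CL14830.Contig1, with 42.0 FPKM in YA and 70.5 in VCA, then 75.3 in EFS, 34.9 in FBS and 65.5 in SFS. It was high in VCA, EFS and SFS and low in YA and FBS.

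Transketolase moves carbon pairs between sugars and serves the oxidative pentose phosphate pathway as well. Its sum of 439 FPKM in YA and 414 in VCA, then 518 in EFS, 269 in FBS and 283 in SFS was almost wholly CL8088.Contig4, at 424, 408, 513, 264 and 279 FPKM in the same order. In the last stage the class stood at 1.05 times FBS and 0.644 times YA, the lowest of the 9 classes in both ratios. Unigene73454 and Unigene4889, the next transketolases, stayed between 0.31 and 3.61 FPKM.

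PRK makes the acceptor of carbon dioxide and, like SBPase, has no other pathway to serve. The PRK unigene expressed from YA on, Unigene14666, had 66.9 FPKM in YA and 76.4 in VCA, then 56.1 in EFS, 27.7 in FBS and lastly 63.1 in SFS. The SFS value was 2.27 times the FBS value and 0.943 times the YA value at the level of the class.

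Over the classes, the ratio of FBS to EFS lay between 0.378 (small chain) and 0.760 (GAPB), the ratio of SFS to FBS between 1.05 (transketolase) and 2.80 (small chain), and the ratio of SFS to YA between 0.644 (transketolase) and 1.95 (activase). FBS was below EFS in 9 of 9 classes, SFS was above FBS in 9 of 9, and SFS was above YA in 6 of 9, the exceptions being FBPase, transketolase and PRK. When the libraries were scaled so that the median ratio of a unigene to its geometric mean over YA to SFS was equal, FBS was below EFS in 9 classes, SFS above FBS in 9 and SFS above YA in 8, and FBS was the lowest stage in 6 classes in place of 8. Division by the summed FPKM of actin, a component of the cytoskeleton often used as a reference, put FBS below EFS in 6 classes and made FBS the lowest stage in 4, with the large chain at 1.09, activase at 1.07 and GAPB at 1.11 times EFS. Under that division SFS was above FBS and above YA in 9 classes each. The actin sum itself was 1244 FPKM in YA and 1251 in VCA, then 1403 in EFS, 963 in FBS and 639 in SFS, lowest in FBS and SFS.

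The single unigenes were set against the whole table next. A ratio was taken on log2(FPKM + 0.1) for unigenes that reached an FPKM of 1 in at least 1 of the libraries compared, and 2-fold or more counted as higher or lower. This scale understates the change of low unigenes, and several members of a comparison can be contigs of 1 gene.

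In VCA over YA, 54 members passed the filter, of which 6 were higher and 13 lower, or 11.1% and 24.1%, while over all unigenes 30.0% were higher and 31.8% lower. Over the unigenes with a Swiss-Prot name, as every member has, 22.0% were higher and 22.2% lower. The median log2 ratio was -0.34 for the members and -0.05 for all unigenes. The lower members included 6 of 9 transketolases and 5 of 17 small chains, and 0 of 12 activases. All 6 of these transketolases were at or below 3.61 FPKM. All 5 of these small chains were weak matches at or below 4.44 FPKM in both libraries, most of them contigs of CL4346. With weak matches left out, 4 of 39 members were lower, or 10.3%. In EFS over VCA, 19 members were higher and 7 lower of 54, or 35.2% and 13.0%, beside 28.0% higher and 38.3% lower over all unigenes. The medians were 0.49 and -0.37. Among unigenes with a Swiss-Prot name 21.8% were higher and 31.2% lower. The higher members included 6 of 16 small chains, 6 of 15 activases and 3 of 6 GAPB contigs. All of these small chains but CL1613.Contig2 were weak matches. With weak matches left out, 9 of 40 members were higher and 5 lower, or 22.5% and 12.5%. The share higher was then near the 21.8% of unigenes with a Swiss-Prot name, from which weak matches were not removed.

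In FBS over EFS, 29 of 52 members were lower and 5 higher, or 55.8% and 9.62%, whereas over all unigenes 32.5% were lower and 33.0% higher. Among unigenes with a Swiss-Prot name 28.0% were lower and 24.7% higher. The median was -1.14 for the members and 0.02 for all unigenes. Lower were 12 of 16 small chains (median -1.65), 5 of 14 activases, 4 of 6 GAPB contigs, 4 of 7 FBPases and the leading SBPase and PRK unigenes. GAPA was at a log2 ratio of -0.57, short of 2-fold. In SFS over FBS, 26 of 49 members were higher and 6 lower, or 53.1% and 12.2%, beside 29.1% higher and 35.8% lower over all unigenes, with medians of 1.22 and -0.22. Among unigenes with a Swiss-Prot name 23.5% were higher and 27.7% lower. The higher members included 11 of 16 small chains (median 1.44), 8 of 15 activases and 3 of 5 GAPB contigs, and 0 of 3 transketolases. With the contigs of each cluster summed, 11 of 27 clusters or single unigenes were lower in FBS over EFS and 9 of 24 were higher in SFS over FBS, or 40.7% and 37.5%, beside 30.5% and 26.8% over all clusters and single unigenes of the table. The medians were then -0.71 and 0.87.

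Across the whole span, SFS over YA, 14 of 56 members were higher and 14 lower, or 25% each, beside 29.1% higher and 46.8% lower over all unigenes. Over the unigenes with a Swiss-Prot name 25.2% were higher, near the members' share, and 41.7% lower. The median was 0.39 for the members and -0.78 for all unigenes. With the contigs of each cluster summed it turned to -0.19 over 30 clusters or single unigenes, and to -0.85 over the whole table. Of the 30, 4 were higher and 9 lower, or 13.3% and 30.0%, beside 26.7% and 47.5% over the whole table. Activases were mostly higher, 7 of 13 against 1 lower (median 1.08), while 6 of 9 transketolases were lower and 0 were higher (median -2.0). None of these 6 exceeded 3.61 FPKM in either library, and CL8088.Contig4 was at -0.60, so the class median rests on low unigenes. The counts turned on the scaling. With the median ratio 26 members were higher and 11 lower of 55 (all unigenes 36.0% and 38.2%), and with actin 34 were higher and 7 lower of 56 (all unigenes 44.1% and 31.3%), the median of all unigenes lying at -0.09 and 0.60. In FBS over EFS the actin division gave 7 members higher and 17 lower of 50, with all unigenes at 44.8% and 23.1% and their median at 0.75. Relative to the median of all unigenes the members stood 1.16 lower in FBS over EFS as deposited. With the median ratio they stood 1.17 lower and with actin 1.29 lower, and in SFS over FBS 1.45, 1.40 and 1.29 higher. A scaling divides all unigenes of a library by the same factor, so these differences could hardly change. They are therefore no check on the scaling.

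**Figure D3:**
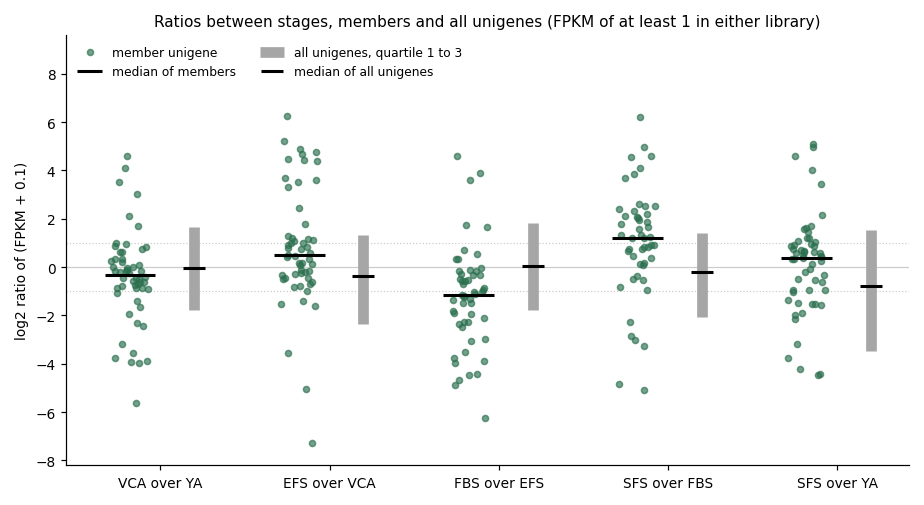
Log2 ratios of (FPKM + 0.1) between stages (vertical axis) for 5 comparisons (horizontal axis), for unigenes that reached an FPKM of 1 in 1 of the libraries compared. Circles are members with their median as a bar, grey bars span all unigenes from the first to the third quartile with their median as a dash, and dotted lines mark 2-fold; the members' median is -1.14 in FBS over EFS and 1.22 in SFS over FBS, against 0.02 and -0.22 for all unigenes.

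Among the 41 members that averaged at least 1 FPKM and were above 0 in all 5 stages, 26 were lowest in FBS, 7 in VCA, 3 in YA, 3 in SFS and 2 in EFS. Over all unigenes that met these limits, 21.1% were lowest in FBS. The highest stage of the 41 was SFS in 19, EFS in 11, VCA in 6, YA in 3 and FBS in 2, and over all unigenes it was SFS in 17.0%. Contigs of 1 cluster are counted singly here, so the counts are not of genes.

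FBD held its own set of Rubisco and Calvin cycle unigenes. Of the 98 members, 42 were 20-fold or more higher in the mean of YA to SFS than in FBD, 26 were 20-fold or more higher in FBD, 4 lay in between and 26 were below 1 on both sides. No member of the first kind exceeded 7.41 FPKM in FBD, and none of the second averaged more than 0.158 over YA to SFS. Each of the 9 classes had at least 1 unigene of its own in FBD. Of the 72 members that reached 1 FPKM on a side, 58.3% were thus lower in FBD and 36.1% higher, beside 46.4% and 52.1% over all unigenes, and whether these shares differ was not tested.

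The most abundant of the FBD unigenes was a small chain. This unigene, CL24251.Contig2, had 706 FPKM in FBD and at most 0.35 in any later stage. The transketolases CL8088.Contig3 and CL8088.Contig2 had 109.9 and 103 FPKM in FBD and at most 0.15 later, although they belong to the cluster of CL8088.Contig4, which was at 1.80 FPKM in FBD and 264 or more later. For the other classes the leading unigenes of FBD were named after their values were seen. They were Unigene156671 (GAPA) at 62.1 FPKM, Unigene119149 (FBPase) at 28.2, Unigene120990 (PRK) at 28.0, CL25118.Contig1 (SBPase) at 23.2 and Unigene125526 (GAPB) at 11.9. CL16557.Contig1 led the activases that were 20-fold or more higher in FBD, at 5.21 FPKM, and Unigene114818 was the large chain of FBD at 2.15. Of the 4 members in between, 3 were activases and 1 was the large chain CL19492.Contig4, at 0.47 FPKM in FBD. CL31010.Contig3 had 45.1 FPKM in FBD and between 8.43 and 21.2 later, and CL31010.Contig2 had 30.4 in FBD and between 2.19 and 13.1 later. CL475.Contig2 had 0.10 FPKM in FBD and at most 7.21 later.

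The members summed to 1237 FPKM in FBD, 0.166% of that library, below every later stage. The class sums in FBD were 736 for the small chain, 3.24 for the large chain, 95.1 for activase, 63.0 for GAPA, 12.7 for GAPB, 55.4 for FBPase, 26.0 for SBPase, 217 for transketolase and 28.3 for PRK. FBPase and PRK in FBD were inside the range of their later stages, and the other 7 classes were below theirs.

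**Figure D4:**
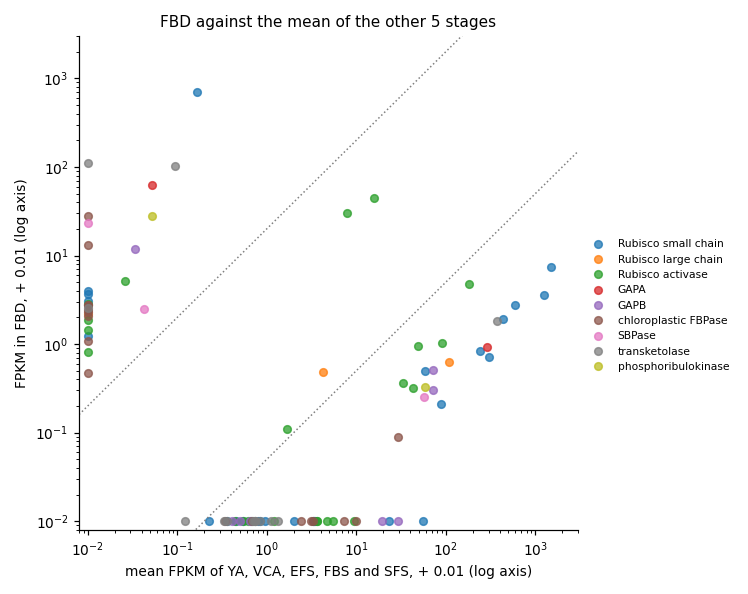
FPKM in FBD (vertical axis) against the mean FPKM of YA to SFS (horizontal axis) for the 98 members, each axis logarithmic after adding 0.01, with colours for the enzyme classes. Of the 98, 26 are below 1 FPKM on both axes, and of the others 42 lie beyond the dotted 20-fold line on the YA to SFS side, 26 beyond that on the FBD side and 4 between the lines.

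Other genes of photosynthesis were read from lists of Swiss-Prot names. Beside the counts of these and later lists, 32.5% of all unigenes were lower and 33.0% higher in FBS over EFS. In SFS over FBS 29.1% of all unigenes were higher and 35.8% lower. The light-harvesting proteins, which bind chlorophyll a and b and pass on absorbed light, summed over 80 unigenes to 6047 FPKM in YA and 9036 in VCA, then 6357 in EFS, 2997 in FBS and 10753 in SFS. In FBS over EFS 19 of 40 were lower and 2 higher (median -0.81), and in SFS over FBS 26 of 37 were higher and 2 lower (median 1.48). The subunits of photosystems I and II, where light drives electron transport, summed over 78 unigenes to 3889, 4663, 4927, 3586 and 7809 FPKM from YA to SFS. Of these 8 of 35 were lower and 6 higher in FBS over EFS, and 16 of 36 were higher and 3 lower in SFS over FBS. As deposited, the lowest stage of each of these lists and of the Calvin cycle members was FBS and the highest SFS. The Calvin cycle members, at 0.445 and 0.636 times EFS, and the light-harvesting proteins, at 0.480 and 0.687 times EFS, were also lowest in FBS after division by the median ratio and by actin. The photosystem sum was then lowest in YA, and with actin it stood in FBS at 1.06 times EFS. VCA was above EFS in the light-harvesting sum and below it in the sum of the Calvin cycle members. The difference between the lists was not tested.

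The remaining enzymes of the cycle, phosphoglycerate kinase, triosephosphate isomerase, aldolase, the pentose phosphate epimerase and isomerase and the regulator CP12, summed over 38 unigenes to 1073 FPKM in YA and 1114 in VCA, then 1263 in EFS, 927 in FBS and 1259.5 in SFS. In FBS over EFS 6 of 17 were lower and 2 higher, and in SFS over FBS 6 of 17 were higher and 1 lower. Photorespiration, which salvages the product of the oxygenase reaction of Rubisco, summed over 73 unigenes to 1160.0, 1303, 1254, 1019 and 1837 FPKM from YA to SFS. In FBS over EFS 13 of 39 were lower and 13 higher, and in SFS over FBS 11 of 38 were higher and 8 lower. Division by actin put FBS above EFS in both lists, at 1.07 and 1.18 times.

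The summed chaperones and modifying enzymes of Rubisco took another course than its summed small and large chains. Their 20 unigenes, among them the subunits of the chaperonin that folds the large chain, summed to 483 FPKM in YA and 597 in VCA, then 404 in EFS, 232 in FBS and 180.2 in SFS, a ratio of 0.373 for SFS over YA where the small chain had 1.66 and the large chain 1.61. In SFS over YA, 4 of 9 were lower and 0 higher, or 44.4% and 0%, beside 46.8% and 29.1% over all unigenes. The median was -0.85 beside -0.78 for all unigenes, so in median and share lower the list stood near the whole table. In SFS over FBS, 3 of 10 were lower and 1 higher (median -0.57). With actin the list was at 0.726 times YA in SFS and at 1.17 times FBS.

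**Figure D5:**
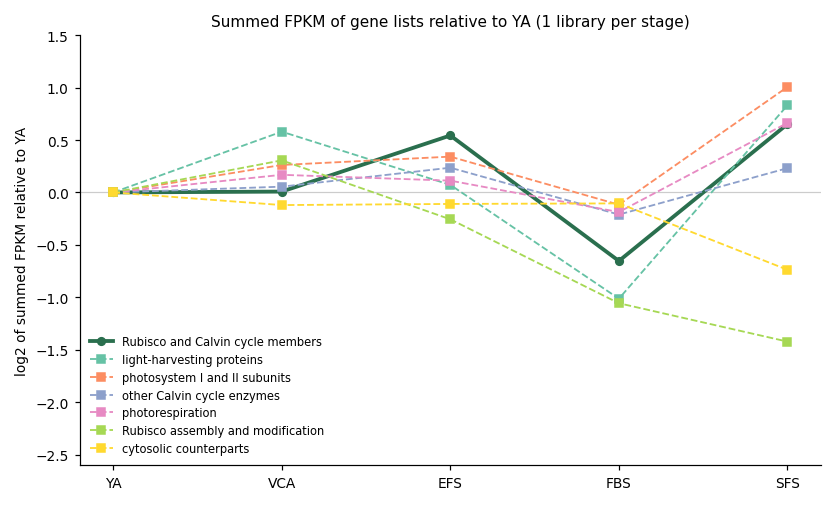
Log2 of the summed FPKM of each gene list relative to its YA value (vertical axis) in YA, VCA, EFS, FBS and SFS (horizontal axis), 1 library per stage. The Rubisco and Calvin cycle members (heavy line) and the light-harvesting, photosystem and other Calvin cycle lists have their lowest point of the 5 in FBS, while Rubisco assembly and modification is lowest in SFS at 180.2 FPKM. Values are as deposited, and after division by the median ratio or by actin FBS stays the lowest stage of the members and the light-harvesting proteins, while the photosystem and other Calvin cycle lists are lowest in YA.

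Floral organs also hold anthers, whose pollen and tapetum, the layer that feeds the pollen, build few photosynthetic chloroplasts. The 163 unigenes of the pollen and tapetum list summed to 2171 FPKM in YA and 2339 in VCA, then 4398 in EFS, 3313 in FBS and 2760.05 in SFS, with 42 at 0 in all 5 stages. The 29 unigenes of its defining markers summed to 97.0, 85.6, 30.3, 22.1 and 34.3 FPKM from YA to SFS. Most of the late sums was CL2302.Contig2, a tetraketide alpha-pyrone reductase 1, at 18.3 FPKM in FBS and 25.9 in SFS. It had 13.8 FPKM in YA. In SFS over YA 9 of 12 markers tested were lower and 1 higher, beside 46.8% and 29.1% over all unigenes. At 0 in all 5 stages were 11 of the 29. Among those at 0 in all 5 were the contigs of DYSFUNCTIONAL TAPETUM 1, a regulator of the tapetum, which were above 0 in FBD. Other defining markers went the other way, such as the fatty acyl-CoA reductase 2 contig CL3952.Contig2, at 0.08 FPKM in FBD and 17.8 in YA. Of all unigenes that reached 1 FPKM, 52.1% were at least 20-fold higher in FBD, so a marker seen only there is not unusual. The share of anthers, sepals and young fruits in each sample is not given, and its part in the course of the Calvin cycle members was not tested. No unigene carried the name of a senescence-specific cysteine protease, so the label of SFS was not checked against that marker.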

How the data were processed

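Total RNA of the floral organs was isolated with TRIzol and sequenced on the Illumina platform, 1 library per stage. The authors used Trinity for an assembly without a genome, grouped its contigs into unigenes, matched these to public databases and ran RSEM to obtain FPKM. The deposited table holds FPKM to 2 decimals, corrected for unigene length and mapped reads, and no counts. The sources used here give no program version, trimming or read number. In 2 lines every cell was empty, and they were left out. Relative depth came from the peak of the ratios of unigenes between 0.2 and 2 FPKM.

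Members were found by Swiss-Prot name. Members and lists were chosen with earlier results of these data known. Ratios were calculated as log2(FPKM + 0.1) for unigenes that reached an FPKM of 1 in a library compared, and class sums without a pseudocount. No p-value was calculated, since no stage has a replicate. Named unigenes were the up to 3 of each class with the highest mean over YA to SFS (at least 1), the 3 furthest above and the 3 furthest below YA in SFS among members reaching 10 FPKM in SFS or YA, and the 3 highest in FBD. Members at 0 in 1 of YA to SFS and at 50 or more in another would have been named, and there were none. Alternatives were a pseudocount of 1, no filter and a filter at 5, division by the median ratio or the actin sum, and contigs summed by cluster. The code for ratios and calls was run on simulated libraries with set changes, without zeros or values near the filter. That run checks the arithmetic only. Python 3.11.15, numpy 2.4.6, pandas 2.3.3 and matplotlib 3.10.9 were used. The sequences of the unigenes were not analysed here.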

Additional observations from a re-analysis of the deposited data

How the results depend on the processing

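Counts of members and class sums were recomputed under each alternative, and a count or ratio that moved by over 1.5 times is given here, with the share of the members tested and, where computed, of all unigenes. With no replicates the limit of every value is that 1 library stands for a stage. A pseudocount of 1 moved no count and no median by that much.

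Without a filter on low values, 10 of 68 members were higher in VCA over YA (14.7%, all unigenes 30.4%), 14 of 72 lower in EFS over VCA (19.4%, all 36.2%), 10 of 72 higher in FBS over EFS (13.9%, all 32.5%) and 10 of 72 lower in SFS over FBS (13.9%, all 35.7%). With a filter at 5 FPKM, 3 of 31 were higher and 1 lower in VCA over YA (9.68% and 3.23%, all 20.9% and 20.6%). In EFS over VCA 10 of 38 were then higher and 4 lower (26.3% and 10.5%, all 20.5% and 30.5%), in FBS over EFS 2 of 36 were higher (5.56%, all 23.7%), and in SFS over YA 9 of 34 were higher and 3 lower (26.5% and 8.82%, all 25% and 40.8%).

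Division by the median ratio gave 26 of 55 members higher in SFS over YA (47.3%, all unigenes 36.0%). Division by the actin sum gave 17 of 50 lower in FBS over EFS (34.0%, all unigenes 23.1%), with a median log2 ratio of -0.53. It gave a median of 1.81 in SFS over FBS. In SFS over YA it gave 34 higher and 7 lower of 56 (60.7% and 12.5%, all 44.1% and 31.3%), with a median of 1.39. It also set the log2 ratio of the class sums, SFS over YA, at 1.69 for the small chain, 1.65 for the large chain, 1.93 for activase, 1.45 for GAPA, 1.81 for GAPB, 0.77 for FBPase, 1.60 for SBPase, 0.33 for transketolase and 0.88 for PRK. As deposited these were 0.73, 0.69, 0.97, 0.49, 0.85, -0.19, 0.64, -0.64 and -0.08, so FBPase, transketolase and PRK changed sign. By construction the division adds the lower actin sum of SFS to each of them.

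With the contigs of a cluster summed, 2 of 30 clusters or single unigenes were higher in VCA over YA (6.67%, all 27.4%). For this setting, all means every cluster and single unigene of the data. EFS over VCA gave 9 of 29 higher and 4 lower (31.0% and 13.8%, all 26.1% and 37.6%). FBS over EFS gave 2 of 27 higher and 11 lower (7.41% and 40.7%, all 31.3% and 30.5%). SFS over FBS gave 9 of 24 higher and 1 lower (37.5% and 4.17%, all 26.8% and 34.4%). SFS over YA gave 4 of 30 higher and 9 lower (13.3% and 30.0%, all 26.7% and 47.5%). The median in SFS over YA was -0.19, in place of 0.39 for single contigs.

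The last alternatives were chosen after seeing the data. For them no share over all unigenes was computed. With weak matches left out, 4 of 39 members were lower in VCA over YA (10.3%) and 9 of 40 higher in EFS over VCA (22.5%). In FBS over EFS 3 of 38 were then higher (7.89%), and in SFS over YA 6 of 40 were lower (15.0%). With only members above 0 in all 5 stages, 3 were higher and 5 lower of 42 in VCA over YA, 10 higher and 4 lower of 41 in EFS over VCA, 3 of 40 higher in FBS over EFS, and 9 higher and 8 lower of 42 in SFS over YA.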

Other observations

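Enzymes that share substrates with the Calvin cycle outside it were summed in the same way. The cytosolic forms of glyceraldehyde-3-phosphate dehydrogenase, fructose-1,6-bisphosphatase, phosphoglycerate kinase and triosephosphate isomerase, which serve glycolysis and sucrose synthesis, summed over 26 unigenes to 1583 FPKM in YA and 1457 in VCA, then 1467 in EFS, 1473 in FBS and 949.75 in SFS. In FBS over EFS 2 of 11 were higher and 2 lower, and in SFS over FBS 1 of 11 was higher and 3 lower. The sum in SFS was 0.600 times that in YA, but 1.17 times after division by actin, and the difference between the lists was not tested.

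The starch and export list, made of glucose-1-phosphate adenylyltransferase, the entry enzyme of starch synthesis, and the triose phosphate translocators of the chloroplast envelope, summed over 32 unigenes to 372 FPKM in YA and 324 in VCA, then 414 in EFS, 506 in FBS and 510.3 in SFS. In SFS over FBS 0 of 13 were higher and 6 lower although the sums differed little. The oxidative pentose phosphate pathway, which shares transketolase with the cycle, summed over 44 unigenes to 396, 369, 331, 328 and 333 FPKM from YA to SFS. In FBS over EFS 5 of 17 were higher and 5 lower. In SFS over YA 5 of 16 were higher and 5 lower, or 31.25% each, beside 29.1% higher and 46.8% lower over all unigenes. After division by the median ratio or by actin, this list and the starch and export list were highest in SFS, as the Calvin cycle members were.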
